A study of Rattus norvegicus with 6 samples.

Results

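The 9 genes described here are the organic anion and cation transporters Slc22a2, Slc22a4, Slc22a5, Slc22a6, Slc22a7, Slc22a8, Slc22a12, Slc47a1 and Slc47a2 of the rat, measured in renal cortex. Members were the non-control probes whose RefSeq accession maps to these symbols, which gave 17 probes for the 9 genes among 15284 gene symbols on the array. The study compared 3 male Sprague-Dawley rats given o-nitroanisole, a nitroaromatic compound, at 400 mg/kg/day with 3 male Sprague-Dawley rats given corn oil, the vehicle. Both groups were dosed for 4 weeks, were 5 weeks old at purchase, and gave 1 one-colour array per rat. The labels call the arrays of a group biological replicates. No genotype was named beyond the strain. The tissue is labelled renal cortex, which holds glomeruli, tubules, vessels and blood together.

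Proximal tubule cells clear drugs and metabolites from blood by pairing a carrier on the basolateral membrane, which faces the blood, with one on the apical brush border, which faces the urine. Organic anions enter through Slc22a6 (OAT1) and Slc22a8 (OAT3) in exchange for dicarboxylates, and organic cations enter through Slc22a2 (OCT2), driven by the membrane potential. On the apical side, Slc47a1 (MATE1) passes cations into the urine in exchange for protons, Slc22a5 (OCTN2) takes back carnitine, Slc22a4 (OCTN1) carries ergothioneine and cations, and Slc22a12 (URAT1) takes back urate. Slc22a7 (OAT2) carries anions and small molecules such as cyclic nucleotides. It is basolateral in the human kidney, whereas in the rat it has been placed in the brush border of the last segment of the proximal tubule, so it is kept apart from both sides here.

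Each value below is a scaled signal, that is the background-subtracted spot intensity divided by the 75th percentile of the non-control probes of the same array. A gene is represented by its brightest probe, and values of different probes cannot be set against each other as levels. Of the 9 members, 8 were well above background on all 6 arrays and were tested, so none of these entered through 1 group alone. On each array 66.4% to 71.5% of the probes that were not controls exceeded background clearly, and the 75th percentile lay between 905 and 1041 intensity units. Lrp2 and Cubn, the endocytic receptors that define the proximal tubule, were well above background on all arrays. All o-nitroanisole arrays lay on slide 2 and all corn oil arrays on slide 1. The scan dates in the file headers divided the arrays in the same way. Slide, scan date and treatment therefore cannot be told apart in any difference given here.

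The basolateral members differed in direction. The cation carrier Slc22a2 was 1.69-fold lower with o-nitroanisole while the anion carriers Slc22a6 and Slc22a8 were 1.22-fold and 1.24-fold higher, and Slc22a7 was 1.92-fold lower. In whole cortex, fewer cells of a type and less RNA per cell cannot be told apart. None of these differences passed an adjusted p of 0.05 with limma's default moderation. By that test 0 of the 8 members were called, as were 0% of the 32428 features tested, the smallest adjusted p of any feature being 0.0711. At an unadjusted p under 0.05, 3 members were higher by their brightest probe, where 11.8% of all features were, and 2 were lower, where 7.12% of all features were, together 5 of 8 against 18.9%. One of the 3 higher was Slc22a4, whose other probe had the opposite sign. A variance trend with robust moderation called 2 of the 8, Slc22a8 higher and Slc22a7 lower, against 1.61% of all features. That second setting gave 0 members on leaving out any 1 array, with 1 array fewer in each such fit.

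**Figure D1:**
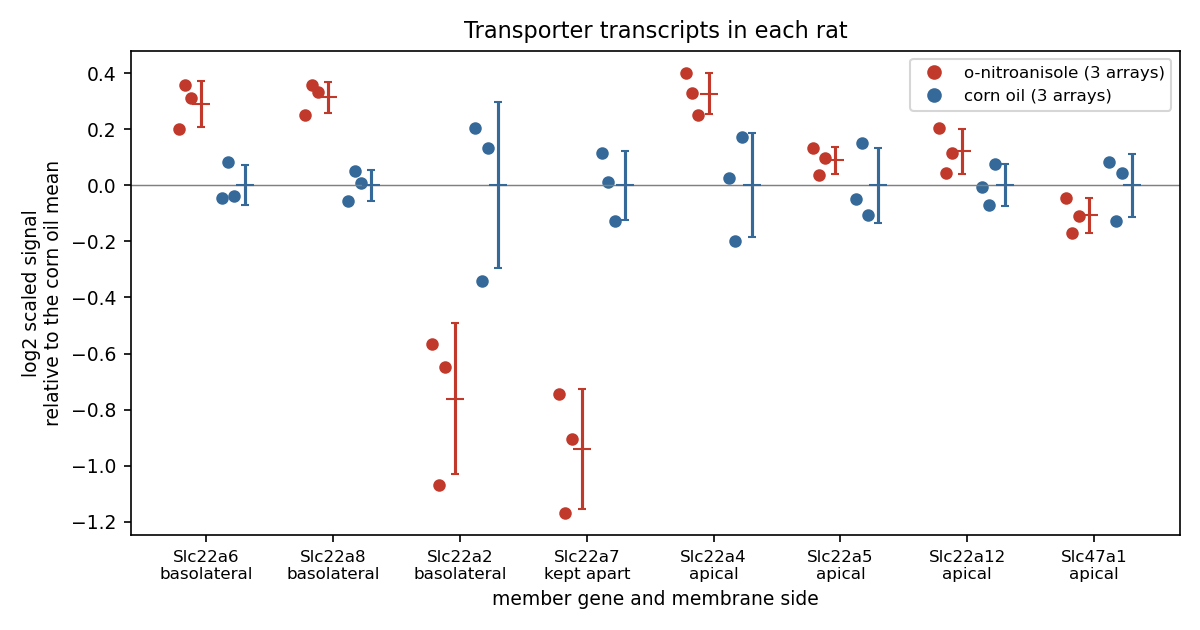
Log2 scaled signal of the brightest probe of each tested member on each array, relative to the mean of the corn oil arrays, with o-nitroanisole left of corn oil for each gene. Points are rats, and the bars give the mean and SD of 3 rats. For Slc22a2 and Slc22a7 the o-nitroanisole points lie below all corn oil points, for Slc22a6, Slc22a8 and Slc22a4 above them, and for Slc22a5, Slc22a12 and Slc47a1 the groups overlap.

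Slc22a7 had the largest difference of the members. Its scaled signal was 0.603, 0.450 and 0.541 in the o-nitroanisole rats, against 1.096, 1.02 and 0.925 in the corn oil rats. Every o-nitroanisole rat lay below every corn oil rat, and the highest o-nitroanisole value was well under the lowest corn oil value. The log2 difference was -0.94 ± 0.13 (SE, n = 3 per group), with a 95% interval from -1.26 to -0.62 and an adjusted p of 0.0880 (limma). The adjusted p was 0.0328 with a variance trend and robust moderation and 0.0434 after normexp background correction, and it lay between 0.0328 and 0.266 over the alternatives. The array holds 1 probe for this gene, so no second probe bears on it.

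Slc22a2 takes up organic cations such as creatinine and metformin from the blood. Its scaled signal was 26.0, 18.3 and 24.5 in the o-nitroanisole rats, against 44.3, 30.4 and 42.2 in the corn oil rats. The groups did not overlap, although corn oil replicate 2 and o-nitroanisole replicate 2 were each well under the other rats of their group. The log2 difference was -0.76 ± 0.20 (SE, n = 3 per group), with a 95% interval from -1.25 to -0.27 and an adjusted p of 0.153 (limma). A second probe of the gene gave 4.62, 3.22 and 4.16 in the o-nitroanisole rats, against 9.53, 6.69 and 9.69 in the corn oil rats, a log2 difference of -1.11 ± 0.20. Both probes therefore placed all o-nitroanisole rats below all corn oil rats. Over the alternatives the difference of the brightest probe or the mean of the probes ranged from -0.93 to -0.61, with adjusted p between 0.0871 and 0.356.

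Slc22a6 is the exchanger for para-aminohippurate and many small anionic drugs. Its scaled signal was 282, 314 and 304 in the o-nitroanisole rats, against 238, 259.7 and 239 in the corn oil rats. The lowest o-nitroanisole value lay above the highest corn oil value, and the log2 difference was 0.29 ± 0.07 (SE, n = 3 per group, 95% interval from 0.11 to 0.47, adjusted p = 0.148 by limma). Its second probe gave a log2 difference of 0.31. Slc22a8, which takes larger anions, had scaled signals of 205, 220.5 and 216 in the o-nitroanisole rats, against 165, 178 and 173 in the corn oil rats. Here too the groups did not overlap, with a log2 difference of 0.31 ± 0.06 (SE, n = 3 per group, 95% interval from 0.16 to 0.47, adjusted p = 0.120 by limma). Its adjusted p was 0.0369 with a variance trend and robust moderation, and its second probe gave a log2 difference of 0.44. These small differences depended on the processing. With median scaling they were 0.31 for Slc22a6 and 0.33 for Slc22a8. The log2 difference of Slc22a6 was 0.16 with quantile scaling and 0.14 after normexp, and that of Slc22a8 was 0.15 with quantile scaling and 0.20 after normexp, all still above 0.

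Set against the anion carriers within each array, Slc22a2 was lower in every o-nitroanisole rat. The log2 ratio of Slc22a2 to Slc22a6, relative to its corn oil mean, was -0.77, -1.43 and -0.96 in the o-nitroanisole rats, against 0.25, -0.42 and 0.17 in the corn oil rats. The mean difference was -1.05, with SDs of 0.34 in the o-nitroanisole group and 0.37 in the corn oil group. The ratio of Slc22a2 to Slc22a8 differed by -1.07, and the groups did not overlap in it. Slc22a2 alone was lower and both anion carriers alone were higher without overlap. The lack of overlap in these ratios follows from that and is no further observation. The pairs were chosen after the values were seen, so no test is given, and a ratio within an array shows unequal change, not which of the transcripts moved.

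The promoters of the members called by the variance trend and of Slc22a2 are shown because Slc22a2 and Slc22a7 were lower while Slc22a8 was higher. The sequences are from RefSeq, build GRCr8, and run from 250 bases before to 50 bases after the annotated start of the gene, 5′ to 3′ on the strand of the gene. Of the 9 members, 7 had an entry; Slc22a6 and Slc47a1 are named only. The motifs searched on both strands were the direct repeat bound by HNF4A, which is AGGTCA given again after a single free base, and its unit, AGGTCA, which also lies inside the repeat. A match to either would stand in capitals, and these promoters hold none. No other motif was searched. The HNF1 half-site GTTAAT was planned but left out of the search, so lower-case letters do not show that it is absent. Read by eye, the Slc22a8 sequence below holds GTTAAT, and those of Slc22a7 and Slc22a2 hold it on neither strand. Its share among all promoters was not counted, so nothing is drawn from this.
Slc22a7, chr9:22045248-22045547, plus strand: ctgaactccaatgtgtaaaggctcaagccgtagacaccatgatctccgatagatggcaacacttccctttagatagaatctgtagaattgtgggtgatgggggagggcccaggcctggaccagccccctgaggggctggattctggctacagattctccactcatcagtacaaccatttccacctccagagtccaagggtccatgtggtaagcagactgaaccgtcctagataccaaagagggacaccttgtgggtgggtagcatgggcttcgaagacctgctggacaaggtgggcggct
Slc22a2, chr1:50710970-50711269, minus strand: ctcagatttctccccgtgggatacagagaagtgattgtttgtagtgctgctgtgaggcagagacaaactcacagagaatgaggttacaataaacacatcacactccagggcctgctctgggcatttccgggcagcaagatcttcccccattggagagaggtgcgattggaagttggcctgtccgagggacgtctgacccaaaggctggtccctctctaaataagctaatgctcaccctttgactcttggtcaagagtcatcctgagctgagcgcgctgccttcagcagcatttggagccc
Slc22a8, chr1:214927034-214927333, plus strand: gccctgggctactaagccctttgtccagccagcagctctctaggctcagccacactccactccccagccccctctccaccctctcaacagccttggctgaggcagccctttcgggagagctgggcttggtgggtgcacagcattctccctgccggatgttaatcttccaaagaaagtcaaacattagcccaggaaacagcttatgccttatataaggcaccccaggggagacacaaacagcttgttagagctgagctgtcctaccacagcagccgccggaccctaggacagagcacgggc

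HNF4A is a transcription factor of the proximal tubule known to drive genes of this family. The AGGTCA unit was found in none of the 7 member promoters, and in 16.2% of 33469 promoters of the same length. The direct repeat was likewise found in none of the 7, and in 0.0538% of all promoters. The lack of a match says only that these letters are not in this window. The Hnf4a transcript itself differed by 0.11 ± 0.12 on the log2 scale (adjusted p = 0.674 by limma).

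On the apical side the differences were small and 3 of the 4 tested members overlapped between the groups. Slc22a12 had scaled signals of 19.0, 17.0 and 17.9 in the o-nitroanisole rats, against 16.4, 15.7 and 17.4 in the corn oil rats. Its fold was 1.09, with a 95% interval from 0.958 to 1.23 (adjusted p = 0.431 by limma), and its 3 probes gave log2 differences from 0.12 to 0.13, the groups overlapping in the brightest probe alone. Slc47a1, the partner of Slc22a2 for cations, had 15.8, 14.5 and 15.1 in the o-nitroanisole rats, against 17.2, 14.9 and 16.7 in the corn oil rats. Its fold was 0.928, with a 95% interval from 0.809 to 1.07 (adjusted p = 0.517 by limma). The sign of that difference was not settled, since it was -0.11 on the log2 scale here and 0.07 after normexp. The interval of Slc47a1 does not hold the Slc22a2 fold of 0.590. That fold had a 95% interval of its own, from 0.419 to 0.830, and the intervals of these genes overlap. Within each array, the log2 ratio of Slc22a2 to Slc47a1 differed by -0.65 between the groups, without overlap.

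The carnitine and ergothioneine carriers depended on the probe read. Slc22a5 had scaled signals of 5.71, 5.35 and 5.57 in the o-nitroanisole rats, against 5.03, 5.78 and 4.84 in the corn oil rats. Its fold was 1.06, with a 95% interval from 0.918 to 1.23 (adjusted p = 0.610 by limma), and its other probe gave a log2 difference of -0.05. The brightest probe of Slc22a4 had 2.35, 2.24 and 2.12 in the o-nitroanisole rats, against 1.81, 1.55 and 2.00 in the corn oil rats. These groups did not overlap and the log2 difference was 0.33 ± 0.11 (SE, n = 3 per group, adjusted p = 0.205 by limma). The other Slc22a4 probe went the other way, with 0.522, 0.581 and 0.500 in the o-nitroanisole rats, against 0.656, 0.496 and 0.734 in the corn oil rats. Its log2 difference was -0.22 ± 0.16, and with the probes averaged the gene lay at 0.05, so no direction is given for Slc22a4.

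Slc47a2, known in the human kidney as the apical cation exchanger MATE2-K, was the member left out of the tests. Its probe was well above background on 1 of 3 o-nitroanisole arrays and on 0 of 3 corn oil arrays, so no fold is given.

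**Figure D2:**
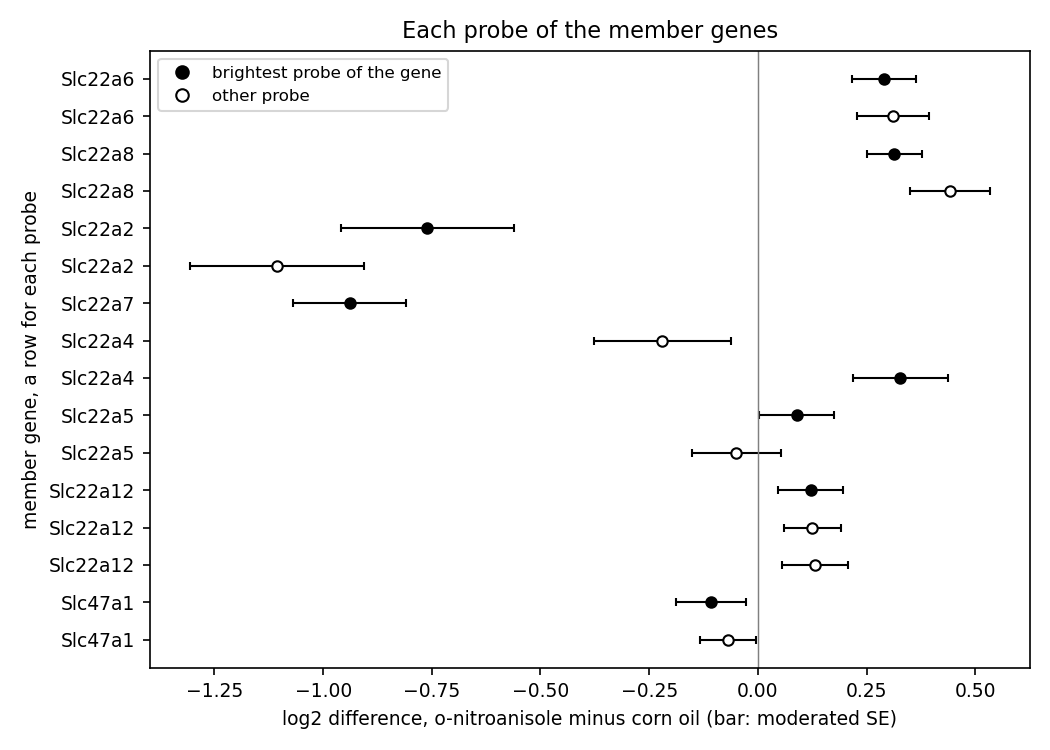
Log2 difference, o-nitroanisole minus corn oil, for each of the 16 tested probes of the 8 members, with the moderated SE as the bar and the brightest probe of each gene filled. Both probes of Slc22a2 lie far left of 0 and those of Slc22a6 and Slc22a8 right of it, while the probes of Slc22a4 and those of Slc22a5 fall on opposite sides of 0.

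Taken by membrane side, the median log2 difference was 0.29 over the 3 basolateral members and 0.11 over the 4 tested apical members, beside 0.03 over all features. With Slc22a7 counted as basolateral, as in the human kidney, the basolateral median was -0.24. Without Slc22a7, the basolateral median of 0.29 became 0.15 with quantile scaling and 0.14 after normexp. The basolateral minus apical difference, 0.18 here, was 0.0207 after normexp. The sign of the basolateral median thus turned with the placing of Slc22a7. By the brightest probe, groups did not overlap for 3 members that were higher, Slc22a6, Slc22a8 and Slc22a4, where 17.6% of all features were higher without overlap. Groups did not overlap for 2 members that were lower, Slc22a2 and Slc22a7, where 9.56% of all features were lower without overlap. Slc22a4 counts here by 1 of its 2 probes, and no direction is given for the gene. In either direction that is 5 of 8 members against 27.2% of all features.

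**Figure D3:**
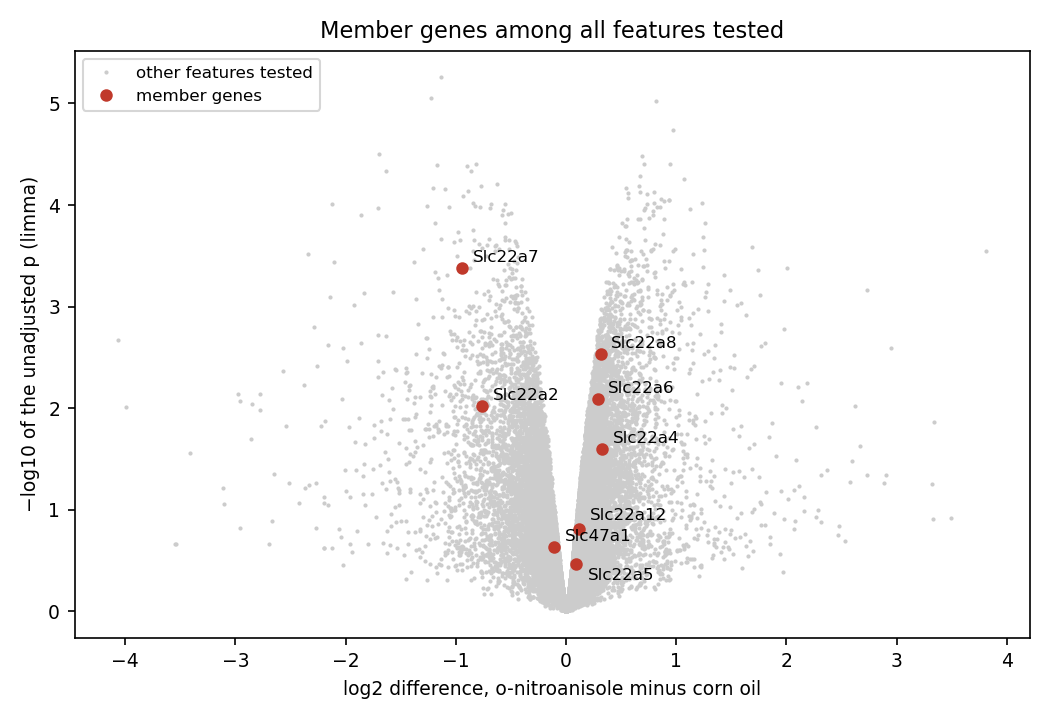
Log2 difference, o-nitroanisole minus corn oil, against −log10 of the unadjusted limma p for all 32428 features, with the 8 tested members marked. Slc22a7 at -0.94 and Slc22a2 at -0.76 stand to the left, and the other members lie between -0.11 and 0.33.

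Of the 11 further Slc22 genes on the array, 9 passed the filter on dim probes, with 4 higher, 5 lower and a median log2 difference of -0.00. None passed an adjusted p of 0.05 by limma's default or by the variance trend with robust moderation. At an unadjusted p under 0.05, 2 were higher and 3 were lower, where 11.8% of all features were higher and 7.12% lower. Slc22a22, known in the mouse kidney as a basolateral carrier of prostaglandins, had the largest difference. Its scaled signal was 10.5, 6.92 and 8.38 in the o-nitroanisole rats, against 21.7, 12.4 and 20.0 in the corn oil rats. All o-nitroanisole rats lay below all corn oil rats, and as for Slc22a2 the replicate numbered 2 was the lowest of each group. The log2 difference was -1.05 ± 0.26 (SE, n = 3 per group, adjusted p = 0.145 by limma).

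Slc22a24, a carrier of steroid conjugates in humans, split the o-nitroanisole rats. It had scaled signals of 5.49, 2.50 and 2.22 in the o-nitroanisole rats, against 6.50, 5.63 and 5.28 in the corn oil rats. O-nitroanisole replicate 1 lay among the corn oil rats while the other 2 lay far below them, and the log2 difference of -0.89 ± 0.35 (adjusted p = 0.258 by limma) became -1.30 without that rat. A second Slc22a24 probe gave -1.09, with no overlap. Slc22a24 was named after its values were seen. Slc22a18, an orphan carrier, had 118, 106.8 and 109.9 in the o-nitroanisole rats, against 87.8, 98.5 and 87.3 in the corn oil rats, a log2 difference of 0.29 ± 0.08 (adjusted p = 0.157 by limma). Slc22a17, a receptor for lipocalin 2, had 8.39, 8.30 and 7.72 in the o-nitroanisole rats, against 9.56, 9.24 and 10.1 in the corn oil rats, a log2 difference of -0.24 ± 0.07 (adjusted p = 0.161 by limma). In both genes the groups did not overlap.

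Slc22a6 and Slc22a8 are neighbours on chromosome 1 in the RefSeq annotation and were both higher. Slc22a25, the neighbour of Slc22a8 on its other side, lay at 0.06 ± 0.08, and its groups overlapped. Slc22a3, next to Slc22a2 on the same chromosome, was well above background on 0 of 3 o-nitroanisole arrays and 1 of 3 corn oil arrays and was not tested.

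**Figure D4:**
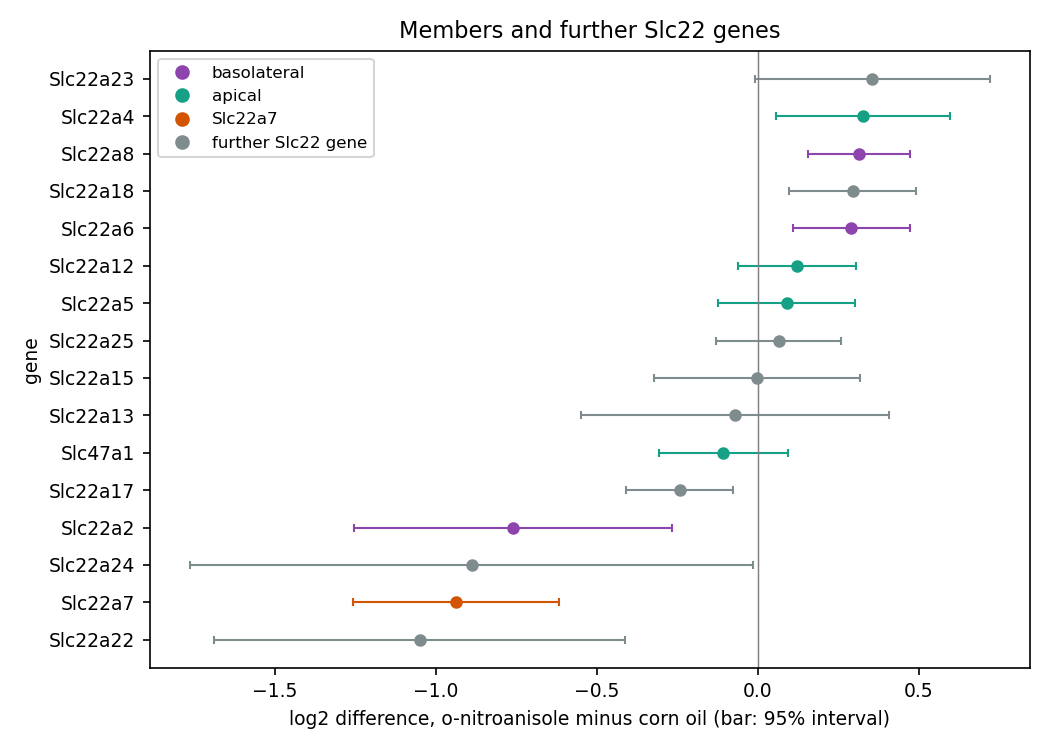
Log2 difference, o-nitroanisole minus corn oil, with its 95% interval for the 8 tested members and 8 of the 9 further Slc22 genes tested, ordered from highest to lowest. Slc22a22, Slc22a7, Slc22a24 and Slc22a2 form the low end, from -1.05 to -0.76, apart from Slc22a17 at -0.24 and the rest.

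The transport system that feeds these carriers includes the dicarboxylate carriers, whose substrates Slc22a6 and Slc22a8 exchange, ion transport that sets the driving forces, and scaffolds that anchor apical carriers. Of 9 such genes tested, 7 were higher and 2 lower, with a median log2 difference of 0.17, and 0 passed an adjusted p of 0.05 by limma's default. At an unadjusted p under 0.05, 5 were higher and 0 lower, where 11.8% of all features were higher and 7.12% lower. With a variance trend and robust moderation 3 were called, all higher, where 1.24% of all features were called higher and 0.373% lower. Slc13a3, the basolateral dicarboxylate carrier, had 405, 402 and 412 in the o-nitroanisole rats, against 351, 335 and 341 in the corn oil rats, a log2 difference of 0.25 ± 0.05 (adjusted p = 0.129 by limma, 0.0325 with the trend). Slc13a2, its apical counterpart, had 43.0, 46.6 and 45.9 in the o-nitroanisole rats, against 30.7, 33.7 and 32.7 in the corn oil rats, a log2 difference of 0.48 ± 0.07 (adjusted p = 0.0910 by limma, 0.0248 with the trend). In Slc13a3 and Slc13a2 no o-nitroanisole rat overlapped a corn oil rat. The scaffold Pdzk1 differed by 0.19 ± 0.06 (adjusted p = 0.176 by limma), while the scaffold Nherf1 lay at 0.01 ± 0.10.

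Among 12 transcription regulators of these carriers 6 were higher and 6 lower, with a median of 0.05, and none passed an adjusted p of 0.05 by either setting. The 3 with the smallest unadjusted p were Nr1i2 (the pregnane X receptor) at 0.24 ± 0.06, Nr1h4 (the bile acid receptor FXR) at 0.36 ± 0.10, and Ahr at -0.22 ± 0.10 (adjusted p = 0.151, 0.156 and 0.314 by limma). Of 6 tested genes of carnitine handling, 5 were higher and 1 lower, with a median of 0.09, and none passed by either setting. Cpt2, the inner mitochondrial carnitine palmitoyltransferase, lay at 0.37 ± 0.10 (adjusted p = 0.153 by limma), Slc25a20 at 0.14 ± 0.07 and Cpt1a at 0.39 ± 0.22. Of 6 tested genes of urate handling, 4 were higher and 2 lower, with a median of 0.15 and 0 past the threshold by limma's default. The monocarboxylate carrier Slc5a8 had 3.40, 3.26 and 2.48 in the o-nitroanisole rats, against 1.13, 1.46 and 0.852 in the corn oil rats, a log2 difference of 1.43 ± 0.23 (adjusted p = 0.0979 by limma, 0.0455 with the trend). Its relative Slc5a12 lay at 0.43 ± 0.15 and the urate carrier Slc2a9 at 0.22 ± 0.15.

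Markers of the segments of the proximal tubule also differed between the groups. Of 3 markers of the late segment, 3 were lower, with a median log2 difference of -0.49. The groups did not overlap in any of the 3, where 9.56% of all features were lower without overlap. None of the 3 markers passed an adjusted p of 0.05 by either setting. Their summed scaled signal was 263 to 351 in the o-nitroanisole rats, against 379 to 517 in the corn oil rats. Slc7a13, an acidic amino acid and cystine carrier of that segment, had 81.8, 40.7 and 43.5 in the o-nitroanisole rats, against 176, 103 and 152 in the corn oil rats, a log2 difference of -1.41 ± 0.33 (adjusted p = 0.138 by limma). Slc3a1, the subunit rBAT of the cystine carrier, lay at -0.36 ± 0.11. Slc5a1, the glucose carrier SGLT1, differed by -0.49 ± 0.24, or by -0.25 with o-nitroanisole replicate 3 left out. The part of the late segment in the values of Slc22a7 and Slc22a2 was not tested.

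Of 5 markers of the early segments, 4 were higher and 1 lower, with a median of 0.24. Their summed scaled signal was 449 to 484 in the o-nitroanisole rats, against 415 to 456 in the corn oil rats. Slc2a2, the basolateral glucose carrier, lay at 0.64 ± 0.13 and Slc6a19, the neutral amino acid carrier, at 0.47 ± 0.11 (adjusted p = 0.121 and 0.139 by limma), while Slc34a1, the phosphate carrier, lay at -0.01 ± 0.06. Markers shared by all segments went both ways, 5 higher and 5 lower, with a median of 0.04. Their summed scaled signal was 1846 to 1911 in the o-nitroanisole rats, against 1835 to 1879 in the corn oil rats. Of these, Gatm lay at -0.77 ± 0.20 and Pck1 at 0.57 ± 0.13, both without overlap. Red blood cell markers were also higher, 8 of 8 with a median of 0.89, and their summed scaled signal was 669 to 818 in the o-nitroanisole rats, against 430 to 499 in the corn oil rats. Collecting duct markers were higher in 9 of 11 with a median of 0.36, and their sum was 326 to 371 in the o-nitroanisole rats, against 276 to 305 in the corn oil rats. Of the loop and distal tubule markers 2 were higher and 2 lower, with a median of 0.07. Umod, the uromodulin of the thick ascending limb, lay at -0.25 ± 0.07 and Cldn16 at -0.41 ± 0.16, both without overlap, while Slc12a3 lay at 0.39 ± 0.20 and Calb1 at 0.64 ± 0.33, both with overlap. Their sum, nearly all of it Umod, was 406 to 432 in the o-nitroanisole rats, against 476 to 521 in the corn oil rats. Each summed signal given here follows the brightest probes of its list. The part of blood, collecting duct, loop and distal tubule in the member values was not tested.

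The other marker lists had medians of 1.15 over 3 tested neutrophil genes, 0.15 over 4 lymphocyte genes, 0.07 over 6 podocyte genes and 0.09 over 7 endothelial genes. Of the neutrophil genes, Csf3r lay at 0.17 ± 0.22 with overlap, and Ngp was well above background on no array. The median was -0.14 over 7 macrophage genes and -0.14 over 9 genes of tubular injury, and 0.05 over 3 adipose and adrenal genes and over 9 controls of RNA quality. No gene of any list passed an adjusted p of 0.05 by limma's default. With the variance trend and robust moderation the marker lists gave calls that were all higher, where 1.24% of all features were called higher and 0.373% lower. There were 3 in red blood cell genes (Alas2, Hbb and Hba-a1), 2 in neutrophil genes (S100a8 and S100a9) and 2 in collecting duct genes (Aqp4 and Slc4a9). The same setting called Cd14 among macrophage genes and Hprt1 among the RNA controls. In the injury list it called Krt18 at 1.23 ± 0.13 and Krt8 at 0.77 ± 0.10, keratins of simple epithelia, although the median of that list was below 0. Of its 9 tested genes 3 were higher and 6 lower. Lcn2 lay at -0.70 ± 0.14 and Havcr1 at -0.46 ± 0.17, both lower without overlap (adjusted p = 0.116 and 0.227 by limma). After normexp they lay at -0.41 and -0.12. The part of these cells and of injury in the member values was not tested. The adrenal genes Cyp11b1 and Star were well above background on no array.

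**Figure D5:**
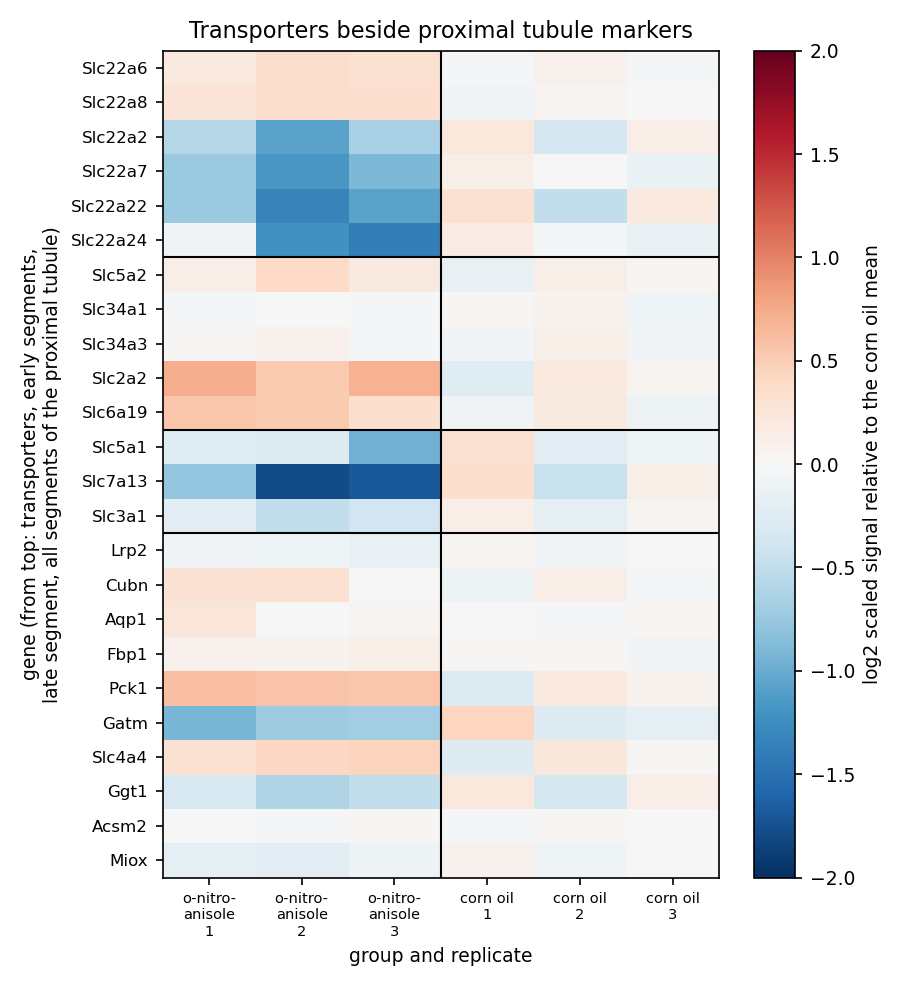
Log2 scaled signal relative to the mean of the corn oil arrays, with o-nitroanisole arrays left of corn oil arrays, for 6 transporters and for markers of the early, late and all segments of the proximal tubule. Slc22a2, Slc22a7 and Slc22a22 are blue on all o-nitroanisole arrays, as are Slc5a1, Slc7a13 and Slc3a1 of the late segment. Slc22a6 and Slc22a8 are red there, as are Slc2a2 and Slc6a19 of the early segments. Slc34a1 and Slc34a3 of the early segments are pale and of mixed sign. Markers of all segments go both ways, Gatm and Ggt1 being blue there and Pck1 and Slc4a4 red.

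The genes whose values over the 6 arrays lay nearest to those of the 2 members with the largest differences were found among 11810 other named genes, by the root mean square distance between mean-centred log2 values. For Slc22a7 they were the phospholipase Pld1, the fructose carrier Slc2a5 and Aknad1, at distances of 0.109, 0.125 and 0.131 on the log2 scale. For Slc22a2 they were the peptidyl-prolyl isomerase Ppic, Trank1 and the polyamine enzyme Odc1, at distances of 0.0869, 0.0943 and 0.103. Ppic had scaled signals of 33.8, 21.4 and 28.0 in the o-nitroanisole rats, against 54.0, 33.5 and 54.1 in the corn oil rats. The replicate numbered 2 was lowest in each group as for Slc22a2, which follows from choosing Ppic by its likeness. Slc22a22 ranked 39 in likeness to Slc22a2, and Slc22a7 ranked 74, so many other genes lay nearer than either.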

How the data were processed

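Total RNA of renal cortex from 6 rats was hybridised as Cy3-labelled cRNA to 6 one-colour Agilent arrays. Per the file headers, the deposited scanner files hold spot intensities, background-subtracted and detrended within the array and not scaled between arrays. The submitters' processing notes name Agilent Feature Extraction 10.7. Per the file headers, other columns used hold flags of 0 or 1 per spot. The deposited value table holds the ratio of that intensity to the 75th percentile of the array, as checked within 1% over probes well above background. Its corn oil columns match the corn oil files in another order, so corn oil replicate numbers are uncertain, while the groups are the same.

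Spike-in probes (84) were left out. From the log2 intensity of the other 61657 probes the 75th percentile of each array was subtracted, and outlier spots were set to missing. Probe accessions were looked up in the RefSeq annotation of GRCr8 (27460 of 33356 matched). The headers name build rn4, so no coordinates of probes are given. Probes well above background on every array of 1 group were kept, and a gene was its brightest probe. The comparison was limma's moderated test (version 3.58.1, default lmFit and eBayes, R 4.3.3), and p-values were adjusted by Benjamini-Hochberg over all features. The fit was tried on simulated data. Plots were drawn with matplotlib 3.10.9, and tables with pandas 2.3.3 and numpy 2.4.6 under Python 3.11.15.

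The members, the gene lists and the split by membrane side were chosen with earlier results of these data known. The rule for named genes took all members and, per list, those past the threshold or the 3 with the smallest unadjusted p, plus the 3 nearest genes of the 2 members with the largest differences. Precision is limited by having 3 arrays a group. The normexp alternative used the median signal, since no mean signal column was used. Some genes of the lists and of the family are counted but not reported by name here.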

Additional observations from a re-analysis of the deposited data

How the results depend on the processing

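The count of called members, 0, and of called features, 0, held with quantile or median scaling, no filter on dim probes, detection on all 6 arrays, outlier spots kept, the mean of probes, array weights and the value table. Normexp called 115 features and 1 member (Slc22a7), and the variance trend with robust moderation called 522 features, 2 members and 4 genes of the transport, regulator, carnitine and urate lists, among them Slc13a3, Slc13a2 and Slc5a8. Leaving out 1 array at a time called 0 to 4 features, the 4 without corn oil replicate 3, and 0 members. Chosen after seeing the data, symbol-bearing features alone called 31 features and 0 members, and the trend and robust fit without 1 array called 6, 62 and 69 features (without corn oil replicates 1, 2 and 3) and 35, 0 and 24 (without o-nitroanisole replicates 1, 2 and 3), and 0 members each time. The basolateral median of 0.29 was 0.15 with quantile scaling, 0.14 after normexp and -0.24 with Slc22a7 counted as basolateral. The basolateral minus apical median, 0.18, was 0.0207 after normexp and -0.34 with Slc22a7 as basolateral. Slc47a1 reversed to 0.0678 after normexp. The other member values kept their sign. Apart from the place of Slc22a7, the cause was not tested for these shifts or for the counts. The replicate block called 0 features, gave Slc22a7 an adjusted p of 0.187 and changed no call; same-numbered arrays' deviations correlated by 0.091, 0.058 and 0.026, so the numbers are not shown to pair rats. The slide block was not run, since no slide held both groups. Probes near background limit Slc47a2.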
